A study of Rattus norvegicus with 10 samples.

Results

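The liver breaks glucose down to pyruvate by glycolysis and stores it as glycogen, and 9 genes of these routes were followed across the livers of 2 rat strains. They were taken by symbol from the deposited table of TPM, a measure of transcript abundance scaled by transcript length and library size: Gckr, Gpi, Pfkl, Pgam1 and Pklr of glycolysis, and Gys2, Pygl, Ppp1r3b and Ppp1r3c of glycogen metabolism. They were 9 of the 32883 genes listed, and all 9 were among the 11083 genes tested, which reached 1 TPM in 5 or more of the 10 samples. Poly(A) RNA had been sequenced from the livers of males aged 5 weeks, with 5 samples of Sprague-Dawley (SD) rats and 5 of Eisai hyperbilirubinemic rats (EHBR), each numbered 1 to 5. EHBR descend from SD rats and are known for a mutation of Abcc2, which encodes Mrp2, the pump that exports conjugated bilirubin into bile. No treatment is named for either strain. The Abcc2 mutation goes with strain, so it cannot be told apart from whatever else differs between the strains.

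In hepatocytes, glucose is first phosphorylated, and Gckr encodes a regulatory protein that acts at this entry step. The glucose phosphate formed can pass down glycolysis, where Gpi, Pfkl, Pgam1 and Pklr encode successive enzymes and the last of them yields pyruvate, or it can be built into glycogen by the glycogen synthase that Gys2 encodes. Pygl encodes the phosphorylase that takes glucose units off glycogen, and Ppp1r3b and Ppp1r3c encode subunits that bring protein phosphatase 1 (PP1) to glycogen, where it turns the synthase on and the phosphorylase off. Transcription of liver pyruvate kinase is known to follow glucose supply through ChREBP, a factor that binds carbohydrate response elements.

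Promoter sequences of 8 of the 9 genes were found in RefSeq (rat build GRCr8, from 250 bases before to 50 bases after the start), and Ppp1r3b had no entry. The carbohydrate response element was searched on both strands as CANGNG and CNCNTG with any 5 bases between them, and the E-box, a shorter motif bound by factors of the same family, as CACGTG. Of these 8 promoters, the carbohydrate response element was found in that of Pklr alone, against 0.562% of all 33469 promoters, and the E-box in that of Ppp1r3c alone, against 6.42%. The stretches that hold the 2 matches are shown 5′ to 3′, since they are what sets these 2 promoters apart from the other 6 in this search. Capitals mark the match, which lies at -168 to -152 from the start of Pklr (chr2:176841066-176841142, plus strand) and at -54 to -49 from the start of Ppp1r3c (chr1:243878546-243878611, minus strand).
Pklr: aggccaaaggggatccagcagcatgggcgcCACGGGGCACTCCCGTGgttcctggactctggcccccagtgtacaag
Ppp1r3c: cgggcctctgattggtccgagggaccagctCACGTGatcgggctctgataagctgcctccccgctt
These are reference letters and not those of SD or EHBR animals, and a match does not show that a factor was bound.

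The samples held 13.8 to 19.6 M reads assigned to genes, and the 9 genes had between 298 and 14990 reads in a sample. Abcc2 stood at 199 to 271 TPM in SD 1 to 3, at 60.0 and 66.4 TPM in SD 4 and 5, and at 10.1 to 17.6 TPM in EHBR. Its strain difference over all samples was -3.25 on the log2 scale (limma, adjusted p = 0.000996). Earlier results of these data had separated numbers 4 and 5 from numbers 1 to 3 in both strains, and the labels do not say what the numbers mean. The share of TPM from mitochondrial genes was 13.0 to 13.4% in SD 1 to 3, 17.0 to 17.4% in SD 4 and 5, and 14.1 to 16.2% in EHBR. Strain differences are therefore also given within numbers 1 to 3 and within numbers 4 and 5. Differences are on the log2(TPM + 1) scale, and a gene was called where its limma p, adjusted over all genes by the Benjamini-Hochberg method, was under 0.05. Of all genes, 604 (5.45%) differed between the strains, 423 higher and 181 lower in EHBR. The median log2 difference of all genes tested was 0.15, and centring each sample on its median moved it to -0.02 and the split of calls to 193 higher and 266 lower.

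Of the 9 genes, Pklr, Gpi, Pgam1 and Gys2 were higher in EHBR, where 3.82% of all genes tested were called higher, and none was lower, where 1.63% were. In each of these 4, every EHBR sample stood above every SD sample, a separation found in 6.45% of all genes. Pklr rose most, to 2.34 times the SD mean, followed by Gys2 at 1.82 times, Gpi at 1.76 times and Pgam1 at 1.37 times. Gckr, Pfkl, Pygl, Ppp1r3b and Ppp1r3c did not pass the test over all 10 samples. The median log2 difference of the 9 genes was 0.43, and 8 of the 9 differences were above 0, as were 73.1% of those of all genes tested. With median centring 2 of the 9 genes were called, Pklr and Gys2, where 1.74% of all genes were called higher, and the 9 genes' median was 0.26. The same 2 were called with upper-quartile FPKM, with a trend on gene length removed and with voom on recovered reads, where 1.98%, 2.09% and 1.91% of all genes were called higher. FPKM kept Gpi as well (2.77% of all genes), and median centring with a term for number set kept all 4 (4.4%).

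**Figure D1:**
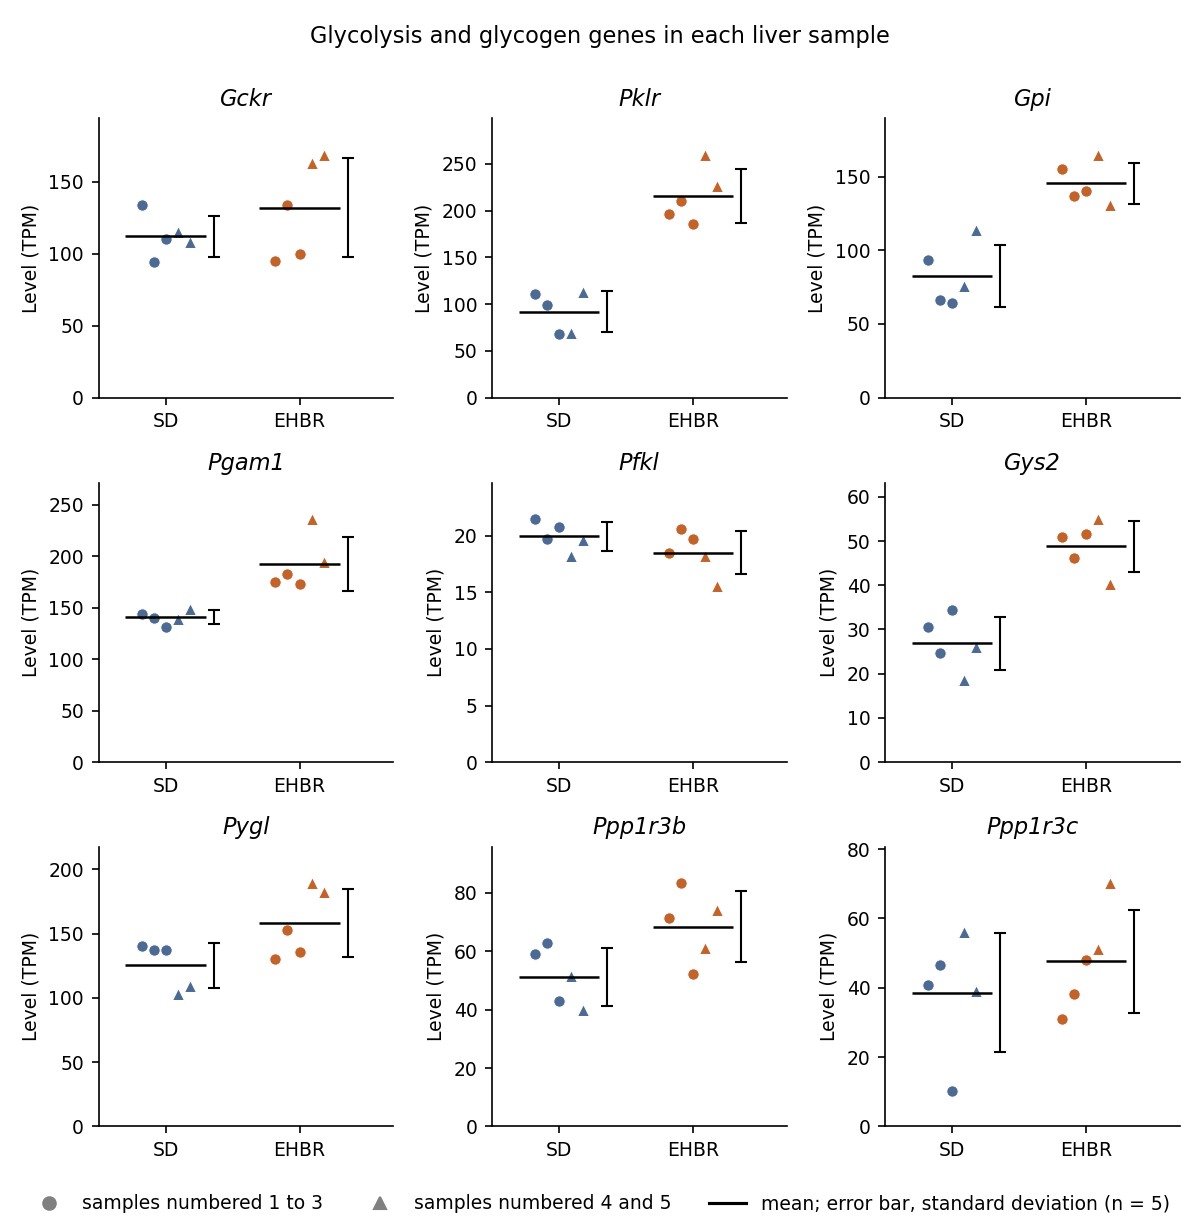
Level of each of the 9 genes in every sample (TPM, linear axis from 0; circles, samples numbered 1 to 3; triangles, numbers 4 and 5; line, mean of 5 samples; error bar, standard deviation). For Pklr, Gpi, Pgam1 and Gys2 the EHBR points all lie above the SD points, while for the other 5 genes the strains overlap.

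At the entry to glycolysis, Gckr (ENSRNOG00000048874, rn6 chr6:26355296-26385761, minus strand) stood at 134, 94.6, 110, 115 and 108 TPM in SD 1 to 5 and at 94.9, 134, 99.7, 163 and 169 TPM in EHBR 1 to 5. EHBR 4 and 5 were the highest of the 10 samples, or 166 TPM on average, while EHBR 1 to 3, at 109 TPM, lay within the SD range. Over all samples, the means were 112 ± 14.3 TPM in SD and 132 ± 34.4 TPM in EHBR (mean ± SD, here the standard deviation and not the strain, n = 5, as for all means given in this way), and the log2 difference of 0.20 ± 0.17 (SE) did not pass (adjusted p = 0.515, limma; 95% interval -0.17 to 0.58). It was -0.05 within numbers 1 to 3 and 0.57 within numbers 4 and 5 (adjusted p = 0.0536).

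Gpi (ENSRNOG00000023150, chr1:90063411-90091287, minus strand), which encodes the isomerase that turns glucose phosphate into fructose phosphate, stood at 93.1, 66.5, 64.3, 75.7 and 114 TPM in SD 1 to 5. In EHBR 1 to 5 it stood at 155, 137, 140, 165 and 131 TPM. The lowest EHBR sample was above the highest SD sample, SD 5, which lay well above the other 4 of its strain. The means were 82.7 ± 20.8 and 146 ± 14.1 TPM, and the log2 difference was 0.84 with an SE of 0.15 (limma, adjusted p = 0.0077). It was 0.96 within numbers 1 to 3 (adjusted p = 0.0114) and 0.66 within numbers 4 and 5 (adjusted p = 0.114). With median centring it was 0.67 and no longer passed (adjusted p = 0.122).

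Pfkl (ENSRNOG00000001214, chr20:11393877-11415882, plus strand), which encodes the liver subunit of phosphofructokinase, the committed step of glycolysis, stood at 21.5, 19.7, 20.8, 18.2 and 19.6 TPM in SD 1 to 5. In EHBR 1 to 5 it stood at 18.5, 20.6, 19.7, 18.2 and 15.6 TPM. The strains overlapped over nearly the whole range, with EHBR 5 alone below the SD samples. It was the 1 gene of the 9 with a log2 difference below 0 over all samples, at -0.11 ± 0.10 (SE; adjusted p = 0.561, limma), with a 95% interval from -0.33 to 0.12. An increase of the size seen in Gpi or Pklr lies outside that interval. With median centring the difference was -0.28 (adjusted p = 0.165). The muscle and platelet forms, Pfkm and Pfkp, stood at 1.68 and 0.668 TPM in SD and at 1.75 and 0.799 TPM in EHBR, so Pfkl was the most abundant of the 3 in both strains.

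Pgam1 (ENSRNOG00000050585), which encodes a phosphoglycerate mutase of lower glycolysis, stood at 144, 140, 131, 139 and 149 TPM in SD 1 to 5, the most even values, relative to their mean, of the 9 genes in either strain. In EHBR 1 to 5 it stood at 175, 183, 173, 236 and 194 TPM. EHBR 4 was the highest and the other 4 lay close together, all above SD. The means were 141 ± 6.82 and 192 ± 25.9 TPM, and the log2 difference was 0.44 with an SE of 0.10 (limma, adjusted p = 0.0215). It was 0.36 within numbers 1 to 3 (adjusted p = 0.0282) and 0.57 within numbers 4 and 5 (adjusted p = 0.0701). Without EHBR 2 it was not called (adjusted p = 0.0511), and with median centring it was 0.27 (adjusted p = 0.397). Pgam1 lies 2.39 Mb from Abcc2 (rn6, chr1:261158261-261165808, plus strand), in the stretch of chromosome that holds the locus for which EHBR are known. The muscle form, Pgam2, was at 0.681 TPM in SD and 0.882 TPM in EHBR.

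Pklr (ENSRNOG00000020420), which encodes the liver form of pyruvate kinase, stood at 111, 99.1, 68.1, 69.4 and 113 TPM in SD 1 to 5. In EHBR 1 to 5 it stood at 196, 210, 186, 260 and 226 TPM. The lowest EHBR sample was far above the highest SD sample, and SD 3 and SD 4 were the lowest of all. The means were 92.2 ± 22.1 and 216 ± 29.1 TPM, and the log2 difference was 1.24 with an SE of 0.16 (limma, adjusted p = 0.00145; 95% interval 0.88 to 1.6). It was 1.11 within numbers 1 to 3 (adjusted p = 0.0127) and 1.44 within numbers 4 and 5 (adjusted p = 0.0408). Pklr was called under all 26 other settings run, at differences from 1.02 to 1.44. Pkm, the pyruvate kinase of most other tissues, stood at 6.23 ± 1.83 TPM in SD and 8.81 ± 4.69 TPM in EHBR (adjusted p = 0.438), with EHBR 4 at 17.1 TPM. Pkm is also the form of macrophages, whose 6 markers summed to 323 TPM in EHBR 4 and to 198 to 287 TPM in the other EHBR samples, and their part was not tested. Its log2 difference was 0.38 over all samples and -0.07 within numbers 1 to 3.

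Pklr shares part of its locus with Hcn3, an ion channel gene on the opposite strand. In rn6, Pklr lies at chr2:188449210-188459592 on the plus strand and Hcn3 at chr2:188454853-188471988 on the minus strand, and they overlap over 4740 bases. Hcn3 stood at 41.3, 37.1, 22.6, 26.5 and 49.0 TPM in SD 1 to 5 and at 67.9, 69.3, 64.4, 91.3 and 78.6 TPM in EHBR 1 to 5. It followed Pklr sample by sample, at 0.332 to 0.433 of its TPM in SD and 0.33 to 0.351 in EHBR, and differed by 1.09 on the log2 scale, with an SE of 0.20 (limma, adjusted p = 0.00703). The library kit marks strand, but no source used here says whether the counting did, so reads of the 2 genes cannot be told apart.

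Pklr also has a red-cell form, made from its own start. Of 6 erythroid markers tested, Slc4a1, the anion exchanger of red cells, was called higher over all 10 samples (log2 0.71, limma, adjusted p = 0.0121) and the other 5 were not, and the 6 had a median of 0.70. Of all genes tested, 3.82% were called higher, and the median was 0.15. Their summed level ran from 982 to 2050 TPM in SD and from 1330 to 3310 TPM in EHBR. The log2 differences of the 6 markers ran from 0.70 to 1.52 within numbers 1 to 3 and from -0.51 to 0.94 within numbers 4 and 5. In the first set all but Ahsp were called higher (limma, adjusted p from 0.00235 to 0.0458, and 0.264 for Ahsp), where 4.35% of all genes were. None was called in the second. In the second set the haemoglobin genes Hba-a1, Hba-a2 and Hbb were below 0 (-0.51 to -0.02), and Alas2, Slc4a1 and Ahsp above it (0.14 to 0.94).

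Gys2 (ENSRNOG00000059753, chr4:176638629-176679815, minus strand), which encodes liver glycogen synthase, stood at 30.5, 24.7, 34.3, 18.6 and 26.1 TPM in SD 1 to 5. In EHBR 1 to 5 it stood at 51.0, 46.1, 51.6, 55.0 and 40.2 TPM. Every EHBR sample was above every SD sample, with SD 4 the lowest and EHBR 4 the highest of the 10. The means were 26.8 ± 5.98 and 48.8 ± 5.78 TPM, and the log2 difference was 0.86 with an SE of 0.15 (limma, adjusted p = 0.00749). It was 0.72 within numbers 1 to 3 (adjusted p = 0.0192) and 1.06 within numbers 4 and 5, where it missed the threshold (adjusted p = 0.056). With median centring it was 0.69 (adjusted p = 0.012). Spx, which overlaps Gys2 on the opposite strand, averaged 0.0156 TPM. Gys1, the synthase of muscle and other tissues, stood at 0.889 TPM in SD and 1.17 TPM in EHBR.

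Pygl (ENSRNOG00000006388, chr6:92597706-92643847, minus strand), which encodes liver glycogen phosphorylase, stood at 140, 137, 137, 103 and 109 TPM in SD 1 to 5. In EHBR 1 to 5 it stood at 130, 153, 136, 189 and 182 TPM. Among numbers 1 to 3 the strains overlapped, while SD 4 and 5 were the lowest and EHBR 4 and 5 the highest of the 10 samples. Over all samples the log2 difference was 0.33 ± 0.14 (SE) and did not pass (125 ± 17.5 and 158 ± 26.7 TPM; adjusted p = 0.193, limma). It was 0.01 within numbers 1 to 3 (adjusted p = 0.939) and 0.80 within numbers 4 and 5 (adjusted p = 0.0349). The difference between these 2 values, tested as an interaction of strain with number set, was 0.79 ± 0.12 (SE; adjusted p = 0.0424, limma), and 0.271% of all genes passed that test. The division was known from earlier results of these data, and with median centring the interaction was 0.54 and did not pass (adjusted p = 0.098). The brain and muscle phosphorylases, Pygb and Pygm, stood at 2.24 and 0.725 TPM in SD and at 2.48 and 0.519 TPM in EHBR.

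Of the 2 genes for PP1 targeting subunits, Ppp1r3b (ENSRNOG00000011474, chr16:60415229-60427474, minus strand), which encodes the liver subunit GL, stood at 59.0, 62.8, 43.0, 51.4 and 39.9 TPM in SD 1 to 5 and at 71.5, 83.3, 52.1, 61.2 and 74.3 TPM in EHBR 1 to 5. EHBR 3 and EHBR 4 lay inside the SD range and the other 3 EHBR samples above it. The means were 51.2 ± 9.91 and 68.5 ± 12.1 TPM, and the log2 difference of 0.42 with an SE of 0.16 did not pass (limma, adjusted p = 0.162; 95% interval 0.07 to 0.76 before adjustment). It was 0.32 within numbers 1 to 3 and 0.57 within numbers 4 and 5.

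Ppp1r3c (ENSRNOG00000018494), which encodes the subunit PTG, stood at 40.8, 46.7, 10.3, 56.0 and 39.2 TPM in SD 1 to 5 and at 30.9, 38.2, 48.1, 51.1 and 70.1 TPM in EHBR 1 to 5. The strains overlapped, and SD 3 was far below the other 9 samples. The means were 38.6 ± 17.1 and 47.7 ± 14.9 TPM. The log2 difference was 0.43 with an SE of 0.39 (limma, adjusted p = 0.539), and 0.02 without SD 3. Ppp1r3c also lies near Abcc2, at 8.18 Mb from it (rn6, chr1:255371810-255376833, minus strand). Ppp1r3d, Ppp1r3e and Ppp1r3g, which encode other targeting subunits, were at 0.406 to 3.80 TPM on average in either strain, below both Ppp1r3b and Ppp1r3c.

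**Figure D2:**
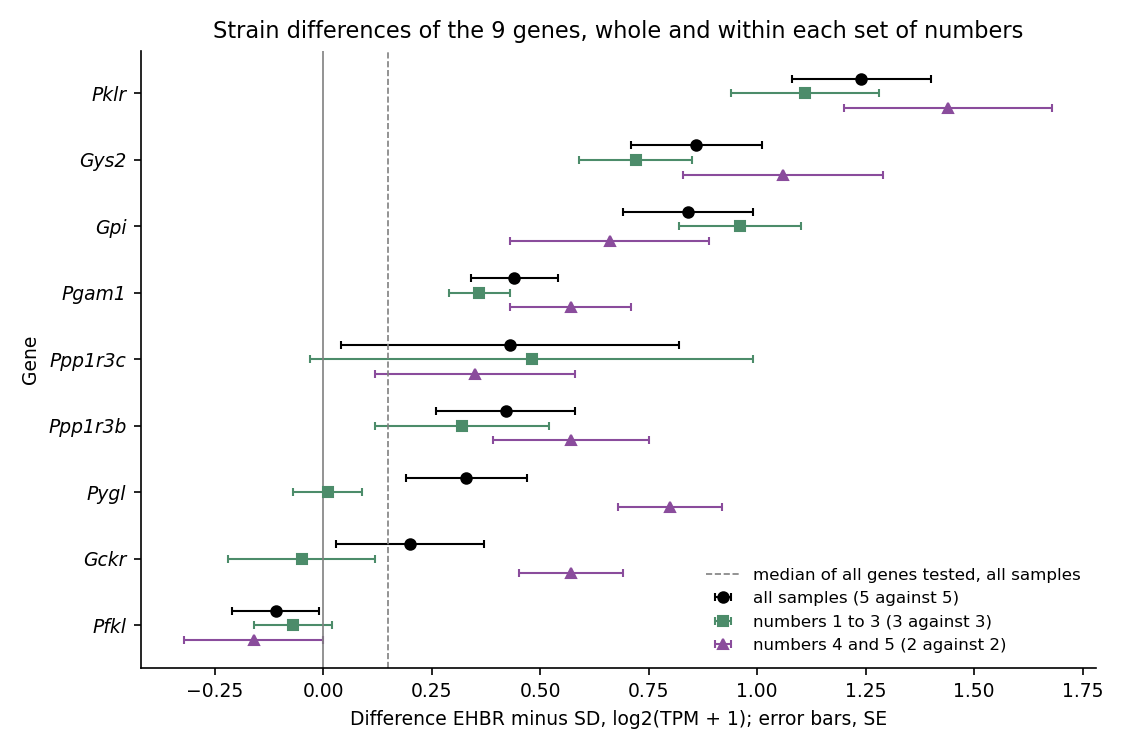
Strain difference of each gene (EHBR minus SD on the log2(TPM + 1) scale, error bar SE) over all 10 samples, within numbers 1 to 3 and within numbers 4 and 5; the dashed line is the median of all genes tested, 0.15. Pklr, Gys2, Gpi and Pgam1 lie right of that line in every set, as do Ppp1r3b and Ppp1r3c, which were not called. Pygl and Gckr do so over all samples and in numbers 4 and 5 and stand near 0 in numbers 1 to 3. The medians of all genes within numbers 1 to 3 and within numbers 4 and 5, 0.07 and 0.27, are not drawn.

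Within numbers 1 to 3, with 3 samples a strain, the same 4 genes were called higher, Pklr, Gpi, Pgam1 and Gys2, where 4.35% of all genes were. Within numbers 4 and 5, with 2 samples a strain, Pklr and Pygl were called, where 4.15% of all genes were called higher. The median of the 9 genes was 0.36 in the first set and 0.57 in the second, beside 0.07 and 0.27 for all genes. Of the 9 interactions of strain with number set, that of Pygl alone passed, and that of Gckr came next (0.62 ± 0.24, SE; adjusted p = 0.199, limma). For the other 7 genes the interaction lay between -0.30 and 0.34.

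Levels within a strain were compared in TPM, which is scaled by transcript length. In SD the order was Pgam1, Pygl, Gckr, Pklr and Gpi, from 141 to 82.7 TPM, then Ppp1r3b, Ppp1r3c, Gys2 and Pfkl, from 51.2 to 19.9 TPM. In EHBR it was Pklr, Pgam1, Pygl, Gpi and Gckr, from 216 to 132 TPM, then Ppp1r3b, Gys2, Ppp1r3c and Pfkl, from 68.5 to 18.5 TPM. Pklr was the fourth of the 9 in SD and the first in EHBR. In both strains the first 5 genes lay above Ppp1r3b in every sample, and in EHBR Pfkl lay below the other 8 in every sample. All other neighbours in these orders overlapped in their ranges.

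Ratios within a sample do not depend on how samples are scaled to each other. They were chosen with the values above known and are given with no test. Pklr stood at 3.28 to 5.78 times Pfkl in SD and at 9.42 to 14.5 times in EHBR, without overlap, and EHBR 4 and 5 held the 2 highest values. Gys2 over Pygl, the synthase over the phosphorylase, was 0.214 ± 0.0328 in SD and 0.317 ± 0.0706 in EHBR (SD, n = 5), and the strains overlapped. Its log2 difference was 0.73 within numbers 1 to 3, where Gys2 was higher and Pygl stood level, and 0.29 within numbers 4 and 5, where both stood higher in EHBR. Ppp1r3b over Ppp1r3c was 1.78 ± 1.35 in SD and 1.57 ± 0.625 in EHBR and overlapped widely, with SD 3 the highest.

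**Figure D3:**
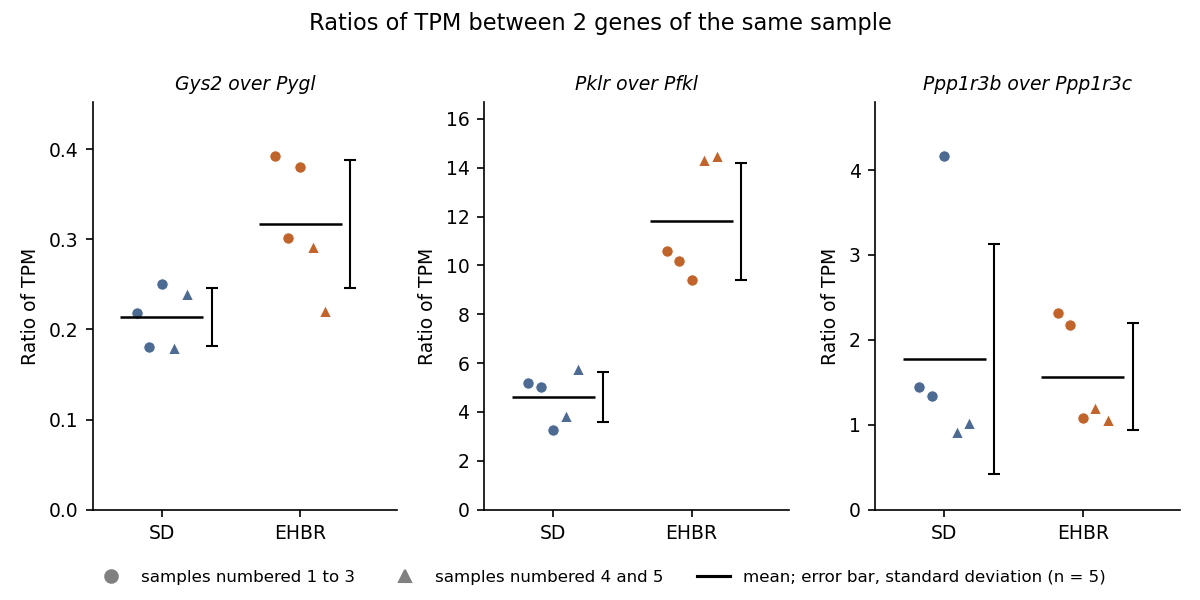
Ratios of TPM between 2 genes of the same sample (linear axes from 0; circles, numbers 1 to 3; triangles, numbers 4 and 5; line and error bar, mean and standard deviation of 5 samples). Pklr over Pfkl separates the strains, at 3.28 to 5.78 against 9.42 to 14.5, and the other 2 ratios overlap.

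The rest of these routes was read from 6 lists of 109 symbols, of which 85 genes were tested and 76 were not among the 9. Of these 76, 10 were higher and 2 lower in EHBR, beside 3.82% of all tested genes called higher and 1.63% called lower, and their median log2 difference was 0.23, beside 0.15 for all genes. Of 22 glycolysis genes, 3 were higher, all of them among the 9 (Pklr, Gpi and Pgam1), and 1 was lower. The lower gene was Ldhb, which encodes a lactate dehydrogenase subunit scarce in liver, at 5.04 ± 0.70 TPM in SD and 2.89 ± 0.952 TPM in EHBR (log2 -0.66, adjusted p = 0.0471, limma), a call lost without any single sample other than EHBR 4. Of 10 genes of gluconeogenesis and glucose release, 1 was higher and 1 lower. The median log2 difference was 0.34 for this list and 0.24 for the glycolysis list, beside 0.15 for all genes. With a term for number set, 5 of these 10 and 6 of the 22 glycolysis genes were called higher, where 13.6% of all genes were. In that fit 1 gene of each list was called lower, where 3.36% of all genes were. Got1, which encodes the cytosolic aspartate aminotransferase, went from 48.3 ± 6.12 to 93.5 ± 24.2 TPM (log2 0.91, adjusted p = 0.00573), and Pck2, which encodes the mitochondrial form of phosphoenolpyruvate carboxykinase, from 13.1 ± 2.22 to 8.22 ± 0.832 TPM (log2 -0.61, adjusted p = 0.0171; 0.0538 without EHBR 2).

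Of 18 glycogen genes, 4 were higher and none lower (3.82% and 1.63% of all tested genes), and the list's median log2 difference was 0.23, beside 0.15 for all genes. Beside Gys2, these were Gyg1, Pgm1 and Gaa. Gyg1, which encodes the glycogenin that primes a glycogen particle, stood at 7.06 ± 1.57 TPM in SD and 12.4 ± 1.37 TPM in EHBR (log2 0.75, adjusted p = 0.0111, limma). Pgm1, which encodes the phosphoglucomutase between glucose phosphate and glycogen, stood at 81.7 ± 3.92 and 101 ± 6.57 TPM (log2 0.31, adjusted p = 0.0454). Gaa, which encodes the lysosomal enzyme that degrades glycogen, stood at 22.5 ± 2.55 and 30.9 ± 3.36 TPM (log2 0.44, adjusted p = 0.0458). These last 2 sat just inside the threshold: they were not called with median centring, and Pgm1 lost its call without any single sample other than SD 5, Gaa without any other than SD 5 or EHBR 5. With median centring 3 of the 18 genes were called higher, beside 1.74% of all genes: Gys2, Gyg1 and Phkb, the last named after its values were seen. Phkb had a log2 difference of 0.74 in the main fit (limma, adjusted p = 0.0506) and 0.57 with median centring (adjusted p = 0.0249). Of 6 genes for PP1 catalytic and targeting subunits none was called, and the most abundant apart from the 9, the catalytic subunit gene Ppp1ca, stood at 115 TPM in SD and 121 TPM in EHBR.

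Downstream of pyruvate kinase, 6 of 12 genes for pyruvate dehydrogenase and its entry were higher in EHBR and none was lower, where 3.82% and 1.63% of all tested genes were, and the list median was 0.48, beside 0.15. Dlat, which encodes the acetyltransferase of the complex, stood at 15.0 ± 2.53 TPM in SD and 32.0 ± 5.63 TPM in EHBR (log2 1.04, adjusted p = 0.00204, limma). Pdk1 and Pdk2, which encode kinases known to switch the complex off, went from 28.8 ± 3.24 to 57.3 ± 13.8 TPM (log2 0.95, adjusted p = 0.00323) and from 131 ± 23.9 to 221 ± 22.7 TPM (log2 0.76, adjusted p = 0.00469). The other 3 called genes, named after their values were seen, were Pdha1, Pdhb and Pdhx, which encode further subunits, at log2 differences of 0.59, 0.74 and 0.71. Mpc1, of the same list and also named after its values were seen, went the other way, with every EHBR sample below every SD sample. A separation in that direction was found in 2.02% of all genes tested. Mpc1 stood at 426 ± 18.9 and 348 ± 37.2 TPM and did not pass (log2 -0.30, limma, adjusted p = 0.0824). It was called lower with FPKM (adjusted p = 0.0461) and with a term for number set (adjusted p = 0.0273). With median centring 2 of these 12 genes were called higher, beside 1.74% of all genes. Of 17 regulators none was called in the main fit. In a fit with a term for number set 3 were called higher, where 1506 of all 11083 tested genes were. Mlxipl, which encodes ChREBP, was on the list but had no match by symbol, so it was not tested. Srebf1, a factor that drives lipid synthesis genes, was the most abundant regulator tested. It stood at 146 ± 39.9 TPM in SD and 223 ± 29.6 TPM in EHBR (log2 0.65, limma, adjusted p = 0.0751). Its adjusted p was 0.0482 without SD 2 and 0.0424 with the term for number set.

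**Figure D4:**
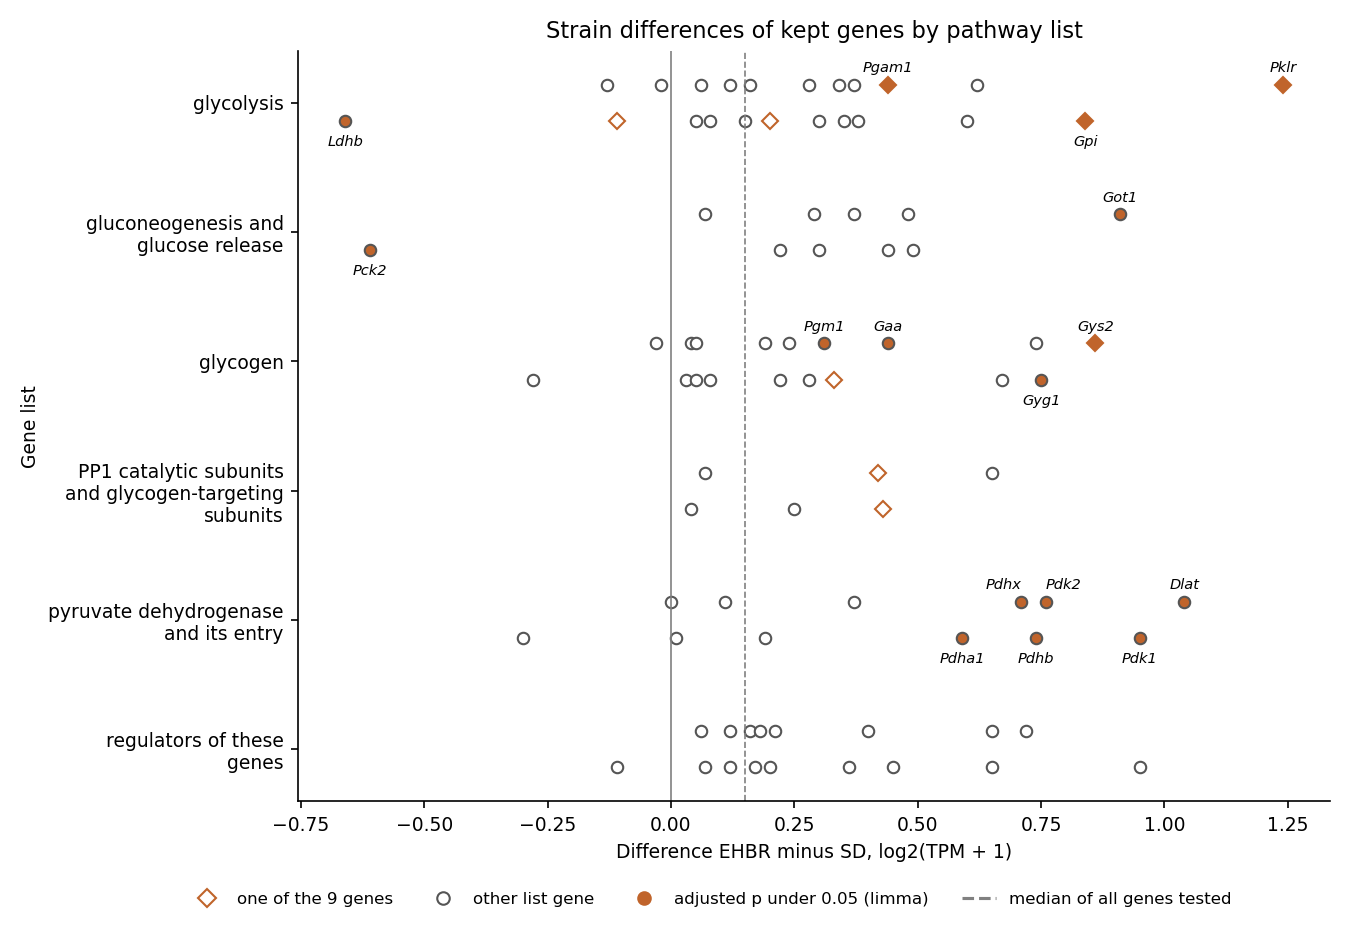
Strain difference (EHBR minus SD, log2(TPM + 1)) of every tested gene of the 6 pathway lists; diamonds are the 9 genes, circles the other list genes, and filled symbols passed limma at an adjusted p under 0.05. The called genes lie mostly on the right, with 6 in the pyruvate dehydrogenase list, and Ldhb and Pck2 are the 2 on the left.

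The genes whose profile over the 10 samples lay nearest to each called gene were found by the root mean square difference of centred log2 values among 4742 genes that averaged 10 TPM or more. For Pklr they were Hcn3 at 0.111, Sgk2 at 0.18 and Tstd1 at 0.202, beside a spread of 0.671 for Pklr itself. For Gys2 they were Acacb at 0.153 and Dpt and Mthfd1 at 0.187, beside 0.488. Acacb encodes the mitochondrial acetyl-CoA carboxylase, and stood at 15.0 TPM in SD and 30.6 TPM in EHBR. For Gpi they were Acsf2 at 0.159, Gss at 0.185 and Prxl2a at 0.186, beside 0.48. For Pgam1 they were Ptgr2 at 0.061, Aifm2 at 0.072 and Ncln at 0.076, beside 0.253. These are descriptions, and the strain difference is part of each profile.

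The liver label was matched by hepatocyte markers, all 8 of which were tested and none called, with a sum of 140000 to 172000 TPM in SD and 160000 to 184000 TPM in EHBR. In whole liver, more cells of a type and more RNA per cell cannot be told apart. Of 5 sinusoidal endothelium markers, Stab1, Stab2 and Kdr were higher in EHBR, where 3.82% of all tested genes were. The list summed to 38.8 to 53.8 TPM in SD and 51.6 to 78.1 TPM in EHBR. With median centring Stab2 alone of these markers was called (limma, adjusted p = 0.0486), where 1.74% of all genes were called higher. Markers of Kupffer cells (176 to 223 TPM in SD, 198 to 323 TPM in EHBR), stellate cells, cholangiocytes, lymphocytes and neutrophils, and fat gave no call in the main fit. Only 2 of 6 cholangiocyte, 4 of 8 lymphocyte and neutrophil and 1 of 4 fat markers were tested. The cholangiocyte marker Epcam was called lower with median centring (log2 -0.53, limma, adjusted p = 0.0162), where 2.4% of all genes were. Within numbers 1 to 3 it was also called lower (log2 -0.45, limma, adjusted p = 0.0349), where 2.17% of all genes were. Skeletal muscle markers summed to at most 0.211 TPM in any sample. Of the pancreas markers, Cela1 was lower in EHBR (log2 -0.99), while Prss1, Pnlip and Ctrb1 were listed at 0. The part of erythroid, endothelial and pancreas markers in the differences of the 9 genes was not tested.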

How the data were processed

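Liver RNA of the 10 samples was extracted with TRIzol, poly(A)-selected and made into directional libraries, per the labels' protocols. Tools listed in the submitters' processing notes, without roles or settings, are HISAT2 2.1.0, featureCounts 1.6.3, Trimmomatic 0.38 and FastQC 0.11.7, and the genome build is rn6. The authors deposited TPM, FPKM and upper-quartile FPKM for each gene and sample. The deposited TPM of the 9 genes departed from a rescaling of the deposited FPKM by at most 0.07 on the log2 scale. Strain and number were read from the sample titles. No source used here says how the animals were bred or fed, and p-values measure only the spread between the samples at hand.

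The test was limma 3.58.1 (trend option, R 4.3.3) on log2(TPM + 1), with strain the 1 factor, for 11083 genes reaching 1 TPM in 5 or more samples. Tests were two-sided, adjusted over all genes by Benjamini and Hochberg's method, with a threshold of 0.05. Adding 1 TPM understates fold changes of low genes. On simulated data of 11083 genes with 5 samples a strain, a log2 change of 0.5 was called for 23 of 50 genes, a change of 1 for 44 of 50 and a change of 2 for all 50, with 4 false calls. The simulated noise left out the spread between the number sets, which stays in the test of strain alone. These shares can therefore be too high for the data. Whole reads were recovered from upper-quartile FPKM for 18036 genes (values whole within 0.0002 reads, which is built into the search, and at least 99.98% of each total), and gave the depth. limma's voom on these reads, scaled by the median of ratios, called 467 genes.

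Alternatives were FPKM, upper-quartile FPKM, pseudocounts of 0.1 and 5, testing unfiltered genes, testing genes that average 5 TPM or more, median centring, quantile normalization, a term for number set, a replicate block, each number set alone, a robust variance fit, a gene-length trend removed, voom, and leaving out each sample. Median centring with a term for number set was added after the data were seen, as were all alternatives for the lists. The 9 genes, the lists and the split by sample number were chosen with earlier results of these data known. Beside the 9 genes, up to 3 called genes of each list were named by smallest adjusted p, or the most abundant where none was called, together with isoform partners and the 3 nearest profiles of each called gene. A gene that this rule names is not reported here. Tables were made with Python 3.11.15, pandas 2.3.3 and numpy 2.4.6, and figures with matplotlib 3.10.9.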

Additional observations from a re-analysis of the deposited data

Results flagged for a closer look

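Ppp1r3c in SD 3 stood at 10.3 TPM, far from the other SD samples at 39.2 to 56.0 TPM. Got1 in EHBR 3 stood at 135 TPM, above the other EHBR samples at 73.1 to 87.3 TPM. Pkm in EHBR 4 stood at 17.1 TPM, above the other EHBR samples at 5.87 to 7.5 TPM. Of 6 Kupffer cell and macrophage markers, Cd68, Marco and Csf1r were also highest in EHBR 4, at 45.2, 117 and 33.9 TPM against 21.5 to 31.5, 34.5 to 74.2 and 12.9 to 17.9 TPM in the other EHBR samples, and Clec4f, Vsig4 and Cd163 were not; their part in the Pkm value was not tested. These 3 came from 50 groups of 5 samples searched for a lone value by Dixon's ratio (critical value 0.71), and chance gives such a value in about 1 in 20 groups. The strain difference of Pygl was larger in numbers 4 and 5 than in numbers 1 to 3 by 0.79 on the log2 scale (adjusted p = 0.0424, limma interaction), a test that was made because that division had been seen in these data.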

How the results depend on the processing

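Across 26 alternatives, 219 of 234 values of the 9 genes kept their direction and side of the threshold, 13 were no longer past it, 1 came past it and 1 reversed. The genes called among the 9 numbered 4, and 2 with upper-quartile FPKM, median centring, a length trend removed or voom (Pklr and Gys2 each time), and 2 within numbers 4 and 5 (Pklr and Pygl). They numbered 3 to 4 when each sample was left out. The median of the 9 genes, 0.43, became 0.28 with upper-quartile FPKM, 0.26 with median centring, 0.57 in numbers 4 and 5, 0.24 with a length trend removed, 0.26 with voom, 0.26 with median centring and a term for number set, and 0.36 to 0.49 when samples were left out. With median centring and that term, all 4 genes were called. Gpi also lost its call with upper-quartile FPKM, a length trend removed and voom (0.66 to 0.68, adjusted p from 0.0699 to 0.108), and Pgam1 with these and with FPKM (0.26 to 0.35, adjusted p from 0.118 to 0.381). The cause was not tested.

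The 1 interaction called, that of Pygl, was lost (0 called) with FPKM, upper-quartile FPKM, unfiltered genes, median centring and quantile normalization. Values that reversed were Gckr, at -0.05 in numbers 1 to 3, Pkm, at -0.07 in numbers 1 to 3, and the interaction of Pgam1, at -0.03 with median centring.

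Over all genes, the 423 called higher became 219 with upper-quartile FPKM, 193 with median centring, 231 with a length trend removed, 211 with voom, 1506 with a term for number set and 243 to 439 without 1 sample (243 without EHBR 2, 276 without EHBR 1 and 269 without EHBR 3). The 181 called lower became 290 with quantile normalization, 372 with that term, 112 in numbers 4 and 5, 300 with a length trend removed, 703 with median centring and that term, and 135 to 179 without 1 sample. The other list genes called higher, 10, became 5 with upper-quartile FPKM or median centring, 22 with that term, 6 with a length trend removed or voom, and 8 to 13 without 1 sample. Those called lower, 2, became 1 with upper-quartile FPKM, a pseudocount of 0.1, unfiltered genes, genes that average 5 TPM or more, median centring, quantile normalization or voom, 0 in numbers 4 and 5, 4 with median centring and that term, and 0 to 2 without 1 sample.

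Sample numbers are shared by the strains, and same-numbered samples deviated together with correlations of 0.0742 to 0.287, so not every number pairs its samples. Among the EHBR samples, the one of the same number was the best match for 3 of the 5 SD samples. With a replicate block, 639 genes were higher and 222 lower, 16 other list genes were higher, and the same 4 of the 9 genes were called. Of the regulators 2 were then called higher and of the PP1 subunit genes 1, while Pgm1 (adjusted p = 0.0591) and Gaa (0.0733) were no longer called.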
